A study of Mus musculus with 12 samples.

Results

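Mitochondrial ribosomal protein genes were followed in Min6, a mouse insulin-secreting beta cell line, after 48 h of treatment. They were taken as the genes whose symbol is Mrpl or Mrps followed by a number and at most 1 further letter. The rule found 78 of the 55487 genes in the count table, 49 with a large subunit name (Mrpl) and 29 with a small subunit name (Mrps), and left out 6 pseudogene rows. Of the 78 genes, 77 passed the filter on low counts (48 large, 29 small), and Mrpl53 was listed at 0 counts in every library. Of the exon bases of Mrpl53, 88% are shared on the same strand with Gm42688 (mean 2.67 CPM), and how the counting treated shared bases is not given in the sources used here, so the 0 cannot be read as absence of its RNA. The 4 groups had 3 libraries each: 1 µM FoxOi together with 5 µM loperamide (FoxOi_Loperamide), 1 µM FoxOi, 5 µM loperamide, and DMSO, the solvent. FoxOi is an inhibitor of the transcription factor FoxO1, and loperamide is an opioid receptor agonist. Min6 is a single transformed line, and the labels do not say that the libraries of a group came from separate cultures, so the tests measure the spread between these libraries, which may be technical.

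Mitochondria carry their own ribosome, which translates the few messages of the mitochondrial genome. All of these encode core subunits of the respiratory chain and the ATP synthase. The ribosomal RNAs come from mitochondrial DNA, whereas every protein of the particle is encoded in the nucleus, made in the cytosol and imported. Some of these proteins have bacterial counterparts and others were added in mitochondria. In beta cells, oxidative phosphorylation couples glucose to insulin release. Some names mislead: Mrps30 and Mrps18a are built into the large subunit, and Mrps36 has been reassigned to the 2-oxoglutarate dehydrogenase complex.

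The members lie on 17 chromosomes, and 33 of the 78 (42.3%) have a protein-coding gene that starts on the opposite strand within 1000 bases, against 10.9% of 21951 protein-coding genes. RefSeq promoters (250 bases before to 50 after the start, GRCm38.p6) were matched for 69 members, with a median GC content of 58.3%, against 61% for the promoters of genes tested. On either strand, the letters CCGGAAG, a core of the ETS family to which GABP belongs, stood in 24 of the 69 (34.8%), against 18% of the promoters of genes tested and 10.9% of all promoters. ATGGCGG, the YY1 core, stood in 13 (18.8%), against 8.13% and 4.93%. GCATGCGC, the 8-letter part of the NRF1 motif, stood in 8 (11.6%), against 5.38% and 3.31%. At least 1 of these 3 motifs was in 35 promoters (50.7%), against 28.1% for genes tested. TGTTTAC, a FoxO core, stood in 2 (2.9%), against 2.35% and 3.12%, and CACGTG, the E-box that MYC binds, in 5 (7.25%), against 10.2% and 7.67%. TGATGCAA, an ATF4 element, was in none of the 69 windows, against 0.626% and 0.958%. The full NRF1 motif, which contains the 8-letter form, was in 3 (4.35%), against 2.02% and 1.16%.

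The 6 promoters printed here belong to the members on which the results below turn: the members with the largest rises and falls (Mrps6, Mrpl12, Mrpl45 and Mrpl17), Mrps18b, which each compound moved in the opposite direction, and Mrps33, the gene called in the test of interaction. They are Mrpl12 chr11:120484387-120484686 on the plus strand; Mrpl45 chr11:97315466-97315765 on the plus strand; Mrpl17 chr7:105811038-105811337 on the minus strand, Mrps6 chr16:92058086-92058385 on the plus strand, Mrps18b chr17:35916391-35916690 on the minus strand, and Mrps33 chr6:39810887-39811186 on the minus strand. Capitals mark the motifs above on either strand. Mrpl17 holds 1 ETS and 1 NRF1 8-letter match, Mrps18b holds 1 ETS and 2 NRF1 8-letter matches, and Mrps33 holds 1 ETS match. Mrpl12, Mrpl45 and Mrps6 hold none of these letters in this window.
Mrpl12: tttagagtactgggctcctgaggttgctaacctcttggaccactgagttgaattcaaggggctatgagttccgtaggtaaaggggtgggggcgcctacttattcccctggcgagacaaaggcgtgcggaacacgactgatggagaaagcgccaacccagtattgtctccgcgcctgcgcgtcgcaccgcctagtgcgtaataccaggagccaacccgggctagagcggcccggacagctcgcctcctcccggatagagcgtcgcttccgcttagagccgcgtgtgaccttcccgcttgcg
Mrpl45: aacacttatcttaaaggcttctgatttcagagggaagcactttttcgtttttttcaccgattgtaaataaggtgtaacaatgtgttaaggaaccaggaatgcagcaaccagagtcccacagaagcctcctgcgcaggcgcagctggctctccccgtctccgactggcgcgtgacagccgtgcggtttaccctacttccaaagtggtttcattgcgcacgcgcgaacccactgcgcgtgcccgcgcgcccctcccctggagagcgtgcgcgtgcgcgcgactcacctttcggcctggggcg
Mrpl17: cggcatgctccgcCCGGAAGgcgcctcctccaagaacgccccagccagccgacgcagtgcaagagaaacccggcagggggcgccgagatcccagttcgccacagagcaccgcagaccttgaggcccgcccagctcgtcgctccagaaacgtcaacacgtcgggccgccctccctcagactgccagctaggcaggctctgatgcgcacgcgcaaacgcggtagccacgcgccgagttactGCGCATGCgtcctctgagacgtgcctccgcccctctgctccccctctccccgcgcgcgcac
Mrps6: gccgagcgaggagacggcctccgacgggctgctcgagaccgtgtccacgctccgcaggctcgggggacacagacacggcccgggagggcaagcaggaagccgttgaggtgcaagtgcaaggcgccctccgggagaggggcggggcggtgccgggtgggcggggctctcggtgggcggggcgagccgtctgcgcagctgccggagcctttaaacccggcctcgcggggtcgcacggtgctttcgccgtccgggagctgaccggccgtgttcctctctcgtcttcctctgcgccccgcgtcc
Mrps18b: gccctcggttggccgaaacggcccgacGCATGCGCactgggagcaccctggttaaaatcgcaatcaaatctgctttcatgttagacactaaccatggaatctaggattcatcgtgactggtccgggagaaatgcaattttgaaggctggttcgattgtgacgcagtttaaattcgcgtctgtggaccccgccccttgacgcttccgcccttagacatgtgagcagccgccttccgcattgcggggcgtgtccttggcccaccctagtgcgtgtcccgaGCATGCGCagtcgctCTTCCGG
Mrps33: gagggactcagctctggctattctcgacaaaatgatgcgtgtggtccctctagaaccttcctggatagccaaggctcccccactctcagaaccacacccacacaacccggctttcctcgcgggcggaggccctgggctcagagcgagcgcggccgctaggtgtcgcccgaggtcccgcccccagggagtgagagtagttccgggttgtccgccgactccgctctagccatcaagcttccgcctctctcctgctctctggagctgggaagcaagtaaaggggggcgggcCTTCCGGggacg

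Library depth ran from 10640485 to 19499216 counts, of which the members took 0.244% to 0.354%. In DMSO, levels per length ran from 0 (Mrpl53) to 83.7 FPKM among large subunit names (median 26.2) and from 3.67 to 60.7 FPKM among small subunit names (median 20.8). Mrpl28, at 83.7 ± 15.6 FPKM, and Mrps34, at 60.7 ± 9.09 FPKM (SD, n = 3), were the most abundant of each in DMSO. Beta cell markers (Ins1, Ins2, Pdx1 and 5 others) summed to 34100 to 39600 CPM in FoxOi_Loperamide, 41100 to 48200 CPM in FoxOi, 76500 to 77800 CPM in loperamide and 78800 to 110000 CPM in DMSO libraries, CPM being counts relative to the TMM-scaled library size. The 4 alpha cell markers summed to 865 to 1190 CPM in FoxOi_Loperamide, 1820 to 2450 CPM in FoxOi, 394 to 722 CPM in loperamide and 2610 to 3830 CPM in DMSO. The 4 ductal markers summed to at most 170 CPM in FoxOi_Loperamide, against 314 to 366 CPM in FoxOi, 166 to 226 CPM in loperamide and 254 to 344 CPM in DMSO, with Krt19 at 0 in loperamide and DMSO. The 3 fibroblast markers stayed at or below 4.24 CPM in sum. The 4 acinar markers stayed at or below 0.256 CPM in sum. The 4 macrophage and leukocyte markers reached 7.19 to 7.62 CPM in FoxOi_Loperamide, 20.1 to 21.7 CPM in FoxOi, 3.73 to 4.31 CPM in loperamide and 3.89 to 5.24 CPM in DMSO. Adgre1, a macrophage marker, was at 0 in loperamide and DMSO. The part of these shifts in the results was not tested. CPM is a share of the RNA in a library, so fewer cells of a type and less RNA per cell cannot be told apart.

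The summed level of all 78 members was highest in FoxOi and lowest in loperamide. It was 3263, 3008 and 2935 CPM in FoxOi_Loperamide libraries 1, 2 and 3, then 3508, 3212 and 3004 CPM in FoxOi and 2871, 2677 and 2458 CPM in loperamide, against 3325, 3014 and 2639 CPM in DMSO. The ranges of FoxOi_Loperamide, FoxOi and DMSO overlapped, and loperamide overlapped DMSO as well. Large subunit names summed to 1991 ± 110 CPM in FoxOi_Loperamide, 2085 ± 169 CPM in FoxOi, 1756 ± 142 CPM in loperamide and 1967 ± 236 CPM in DMSO. Small subunit names summed to 1078 ± 62.6, 1156 ± 84, 913 ± 65.8 and 1026 ± 108 CPM in the same groups (SD, n = 3 each). Within each replicate number the order on this scale was the same at both ends, with FoxOi highest and loperamide lowest of the 4 libraries. The top of the order depended on the TMM scaling. As a share of total counts, library 3 was at 0.303% in FoxOi_Loperamide and 0.301% in FoxOi. Library 1 was at 0.342% in FoxOi_Loperamide and 0.305% in DMSO, the reverse of their order in CPM. Loperamide stayed lowest in each number.

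**Figure D1:**
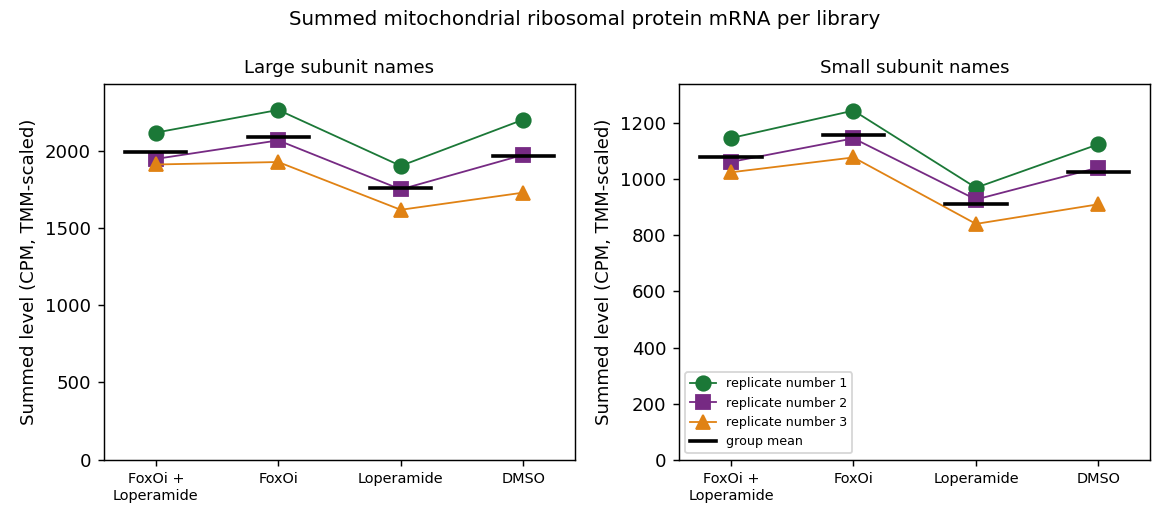
Summed level of the members in each library, as CPM of the TMM-scaled library size, for large (left) and small (right) subunit names. Colours and lines join libraries of the same replicate number and black bars are group means. Number 1 lies above number 3 in every group. Within a number, FoxOi is highest and loperamide lowest on this scale (all members: 3508 and 2871 CPM in number 1).

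The members' levels also differed by replicate number. In all 4 groups library 1 had the highest sum and library 3 the lowest. In a fit with the number as a term, chosen after the sums had been seen, 56 of 77 members were higher in libraries numbered 1 than in those numbered 3 and 1 was lower, while 38.5% of all genes were called (18.2% higher, 20.4% lower). The members' median difference was 0.25 on the log2 scale, 76 of 77 lay above 0, and the median of all genes was 0.033. Mrpl13, of the large subunit, differed most (0.48 ± 0.06 SE, adjusted p = 2.37e-07). Mrpl19 was the member that was lower (−0.24 ± 0.08, adjusted p = 0.0145). The labels give each number a code shared by the 4 groups and do not say what it stands for. Libraries with the same number deviated from their group means together, with correlations of 0.091 to 0.507 over 18 pairs. The lowest was between the libraries numbered 2 of FoxOi_Loperamide and loperamide. Counts from a fit with the number as a block are printed beside each comparison. The calls, SE and adjusted p below come from fits without the number, except where the block is named. They may therefore count differences shared by a number as spread.

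FoxOi against DMSO asked what blocking FoxO1 does to these genes. It raised 18 members (11 large, 7 small) and lowered 3 (2 large, 1 small), by edgeR's quasi-likelihood test with Benjamini-Hochberg adjustment over 16808 genes. Of all genes tested, 40.9% were called (20.7% higher, 20.3% lower), so the members' share of rises, 23.4%, was near the background and their share of falls, 3.9%, was below it. The members' median log2 fold change was 0.10, with 58 of 77 above 0, against 0.01 for all genes. Large subunit names had a median of 0.09 and small subunit names 0.15.

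Mrps6, which sits in the small subunit and has a bacterial counterpart, rose most. It had 15.5, 13.9 and 13.0 CPM in FoxOi, against 7.03, 7.09 and 6.68 CPM in DMSO. The groups did not overlap, and the change was 2.03-fold (log2 1.03 ± 0.11 SE, adjusted p = 4.42e-06). Of the exon bases of Mrps6, 10.4% lie in Slc5a3, a myo-inositol transporter gene on the same strand, whose own change was 0.78. Gm49711, also on the same strand, covers 19.9% of them. It had a mean of 0.0337 CPM and was not tested. Mrpl12, the stalk protein that also binds the mitochondrial RNA polymerase, had 84.3, 70.6 and 71.3 CPM in FoxOi, against 54.0, 48.9 and 40.5 CPM in DMSO. All FoxOi libraries were above all DMSO libraries (1.58-fold, log2 0.66 ± 0.11, adjusted p = 0.000282). The other stalk proteins were not called: Mrpl11 changed by 0.10 ± 0.09 (adjusted p = 0.378) and Mrpl10 by −0.15 ± 0.09 (adjusted p = 0.176). Mrpl45, a mitochondrion-specific protein at the exit of the peptide tunnel, had 38.5, 35.8 and 39.4 CPM in FoxOi, against 30.4, 27.1 and 23.6 CPM in DMSO. Here too the groups were apart (1.4-fold, adjusted p = 0.00188).

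Other members raised by FoxOi had smaller changes. Among small subunit names these were Mrps26 (log2 0.54 ± 0.11, adjusted p = 0.000795), Mrps18b (0.53 ± 0.09, adjusted p = 0.000283) and Mrps17 (0.50 ± 0.08, adjusted p = 0.000108). Of the paralogs of Mrps18b, Mrps18a rose by 0.37 ± 0.09 (adjusted p = 0.00517) and Mrps18c, which holds the place of the bacterial protein, changed by 0.02 ± 0.14 (adjusted p = 0.915). The difference between paralogs was not tested. Mrps30 rose by 0.46 ± 0.10 (adjusted p = 0.00194), as did Mrpl35 (0.46 ± 0.10, adjusted p = 0.00133), and Mrpl36, the small zinc-binding protein, rose by 0.41 ± 0.12 (adjusted p = 0.0114). Mrps12, homologue of the bacterial decoding-site protein, changed by 0.10 ± 0.13, and Mrps36 by 0.01 ± 0.14, and neither was called (adjusted p = 0.546 and 0.96).

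FoxOi lowered 3 members. Mrpl14 had 27.7, 25.8 and 22.5 CPM in FoxOi, against 40.7, 33.4 and 28.8 CPM in DMSO, with no overlap (log2 −0.44 ± 0.12, adjusted p = 0.00851). Of its exon bases, 11.2% lie opposite Tmem63b, whose own change was −0.57. Mrpl17 fell by 0.46 ± 0.14 (adjusted p = 0.016) and Mrps34 fell by 0.37 ± 0.12 (adjusted p = 0.0229), with overlapping groups. Mrps34 shares 37% of its exon bases with Nme3 on the same strand, which changed by −1.06, and 63.4% lie opposite Mapk8ip3, which changed by −0.13, and the strand setting of the counting is not given in the sources used here. Among the 18 rises, 10 kept their call when each of the 6 libraries was left out in turn, and 11 members were called without FoxOi library 1 or without DMSO library 3. Mrpl36 was lost without FoxOi library 1 (adjusted p = 0.0568) and without DMSO library 3 (0.0808). The falls numbered 1 without FoxOi library 3 or without DMSO library 1, and 8 without DMSO library 3. Mrpl17 was lost without FoxOi library 3 (0.0792) and DMSO library 1 (0.0535), and Mrps34 without FoxOi library 2 or 3 or DMSO library 1 or 2 (0.0555 to 0.0811). Both were also lost with scaling by total counts (0.0535 and 0.0816). With the replicate number as a block, 28 members were higher and 9 lower, against 29.0% and 27.1% of all genes.

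**Figure D2:**
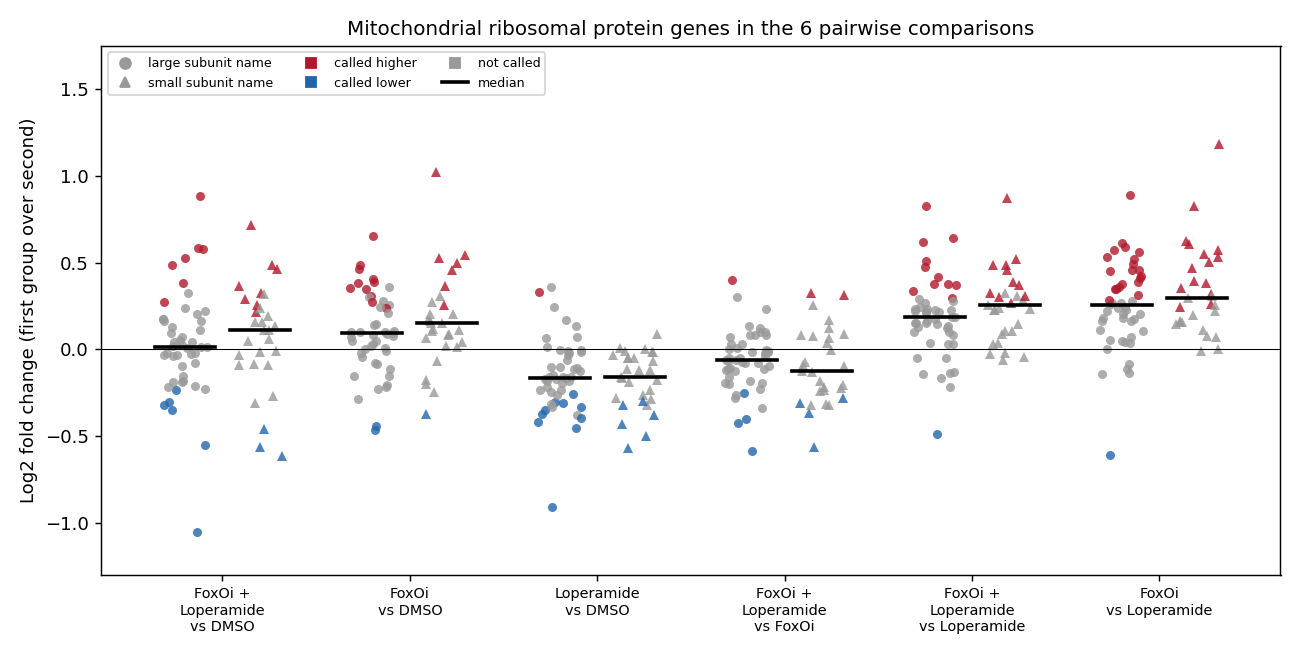
Log2 fold change of each of the 77 tested members (first group over second) in the 6 pairwise comparisons, with circles for large and triangles for small subunit names, red and blue for members called higher and lower, and black bars for medians. Most members lie above 0 in FoxOi against DMSO (58 of 77) and below 0 in loperamide against DMSO (67 of 77).

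Loperamide against DMSO moved the members mostly down. It lowered 16 (10 large, 6 small) and raised 1 of the large subunit, while 31.9% of all genes were called (16.1% higher, 15.8% lower). The shares of members were 20.8% lower and 1.3% higher. The median log2 fold change was −0.16, with 67 of 77 below 0, against 0.02 for all genes. The median was −0.16 for large and −0.16 for small subunit names. Scaling by total counts moved the median of all genes to 0.17 in FoxOi_Loperamide, 0.12 in FoxOi and 0.12 in loperamide, against DMSO, and the members' medians to 0.20, 0.21 and −0.07, without a change of sign.

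Mrpl17, a large subunit protein with a bacterial counterpart, fell most. It had 53.2, 48.7 and 40.8 CPM in loperamide, against 103, 93.0 and 71.9 CPM in DMSO. All loperamide libraries were below all DMSO libraries (0.532-fold, log2 −0.91 ± 0.14, adjusted p = 0.000232). Mrps34, which is needed for a stable small subunit in mice, had 42.8, 37.2 and 33.7 CPM in loperamide, against 64.1, 57.3 and 46.7 CPM in DMSO. The groups did not overlap (0.674-fold, log2 −0.57 ± 0.12, adjusted p = 0.00265), and Nme3, with which it shares exon bases, changed by −0.14. Mrps28 had 25.7, 22.0 and 22.7 CPM in loperamide, against 35.4, 34.8 and 29.1 CPM in DMSO, also apart (log2 −0.50 ± 0.13, adjusted p = 0.0107).

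These 3 were the falls that held with each library left out, the other 13 being lost in at least 1 case. The count of falls was 7 without loperamide library 2, 4 without loperamide library 3, 4 without DMSO library 1, 6 without DMSO library 2 and 25 without DMSO library 3. Mrpl41 (log2 −0.45 ± 0.14, adjusted p = 0.0233) was lost without loperamide library 2 or 3 or DMSO library 1 (0.0697 to 0.0856). Mrps12 (−0.43 ± 0.13, adjusted p = 0.0204) was lost without loperamide library 1 or 3 or DMSO library 1 or 2 (0.0546 to 0.0758). Mrps18b (−0.30 ± 0.09, adjusted p = 0.022) was lost without loperamide library 3 or DMSO library 1 or 2 (0.0526 to 0.0816). Mrpl11 (−0.26 ± 0.09, adjusted p = 0.0357) was lost without loperamide library 2 or 3 or DMSO library 1 or 2 (0.0821 to 0.109). Mrpl34 (−0.42 ± 0.12, adjusted p = 0.0193) was lost without loperamide library 2 or DMSO library 1 (0.0689 to 0.0748). Mrpl42 (−0.40 ± 0.12, adjusted p = 0.0219) was lost without loperamide library 1 or 3 or DMSO library 1 or 2 (0.0529 to 0.0838). Mrps16 (−0.38 ± 0.13, adjusted p = 0.0382) was lost without any of the loperamide libraries or DMSO library 1 or 2 (0.0744 to 0.141). With scaling by total counts 4 of the 16 falls were still called, and the calls lost (adjusted p = 0.0602 to 0.173) included those of Mrpl11, Mrpl41, Mrpl42, Mrps12, Mrps16 and Mrps18b. The 1 rise, Mrpl36 (0.33 ± 0.12, adjusted p = 0.0431), was lost without loperamide library 1 or 2 or DMSO library 2 or 3 (0.0557 to 0.202), and without DMSO library 1 the count of rises was 2. With the replicate number as a block, 31 members were lower and 3 higher, against 22.9% and 25.8% of all genes. In that fit Mrpl12 (−0.23 ± 0.08, adjusted p = 0.0119) and Mrps36 (−0.28 ± 0.11, adjusted p = 0.0314) were also called lower, with adjusted p of 0.131 and 0.16 without the block.

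Both compounds together gave calls among the members in both directions, with neither share above that of all genes. FoxOi_Loperamide against DMSO raised 15 members (7 large, 8 small) and lowered 9 (6 large, 3 small), while 45.5% of all genes were called (22.3% higher, 23.2% lower). The median log2 fold change was 0.04, against 0.01 for all genes. Mrpl45 rose most, with 53.4, 49.1 and 47.5 CPM in FoxOi_Loperamide, against 30.4, 27.1 and 23.6 CPM in DMSO. The groups were far apart (1.85-fold, log2 0.89 ± 0.11, adjusted p = 8.17e-06). Mrps6 rose 1.64-fold (log2 0.72 ± 0.11, adjusted p = 0.000114) and Mrpl12 rose 1.5-fold (0.59 ± 0.11, adjusted p = 0.000623). Slc5a3, with which Mrps6 shares exon bases, changed by 1.08. Mrpl9 rose by 0.52 ± 0.09 (adjusted p = 0.000189), Mrps25 by 0.49 ± 0.11 (adjusted p = 0.00207), and Mrps9 by 0.46 ± 0.12 (adjusted p = 0.00444). Mrpl36 rose by 0.49 ± 0.12 (adjusted p = 0.00328) and Mrps30 by 0.37 ± 0.10 (adjusted p = 0.00759), with no overlap between the groups in either. Mrpl23 (0.58 ± 0.22, adjusted p = 0.0405), whose groups overlapped, was lost without FoxOi_Loperamide library 1 or 3 or DMSO library 2 or 3 (0.0708 to 0.163). Mrps18a (0.29 ± 0.09, adjusted p = 0.0182) was lost without FoxOi_Loperamide library 3 (0.0512) or DMSO library 3 (0.0966). Of the exon bases of Mrps25, 69.8% lie opposite Nr2c2, which changed by 0.08.

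The fall of Mrpl17 was larger than that of any other member in this comparison. It had 44.3, 44.9 and 40.1 CPM in FoxOi_Loperamide, against 103, 93.0 and 71.9 CPM in DMSO. The level was 0.482-fold that of DMSO, with no overlap (log2 −1.05 ± 0.14, adjusted p = 3.07e-05). Mrps34 fell by 0.61 ± 0.12 (adjusted p = 0.000829), Mrps28 by 0.56 ± 0.13 (adjusted p = 0.00301), Mrpl57 by 0.55 ± 0.13 (adjusted p = 0.00278) and Mrps12 by 0.46 ± 0.13 (adjusted p = 0.00933). Nme3, which shares exon bases with Mrps34, changed by −0.97. These 5 falls and 8 of the 15 rises held with each library left out, and of the 5 Mrps12 was lost with scaling by total counts (adjusted p = 0.0699). In that scaling 32 members were higher and 4 lower. The share of all genes called was not computed for it. It moved the median of all genes from 0.01 to 0.17 and that of the members from 0.04 to 0.20. Mrpl41 (−0.35 ± 0.14, adjusted p = 0.0497) was lost without FoxOi_Loperamide library 2 or 3 or DMSO library 1 or 2 (0.0782 to 0.196), and Mrpl14, whose groups overlapped (−0.32 ± 0.12, adjusted p = 0.0409), without any of the FoxOi_Loperamide libraries or DMSO library 1 or 2 (0.0504 to 0.215). Tmem63b, opposite Mrpl14, changed by −0.41. The falls numbered 5 without FoxOi_Loperamide library 2, DMSO library 1 or DMSO library 2, and 14 without DMSO library 3, while the rises numbered 9 without FoxOi_Loperamide library 3 or DMSO library 3. With the replicate number as a block, 25 members were higher and 14 lower, against 29.7% and 29.3% of all genes. Mrps18b (0.16 ± 0.07, adjusted p = 0.0454) and Mrps36 (−0.31 ± 0.10, adjusted p = 0.0123) were called in that fit, and had adjusted p of 0.167 and 0.099 without the block.

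**Figure D3:**
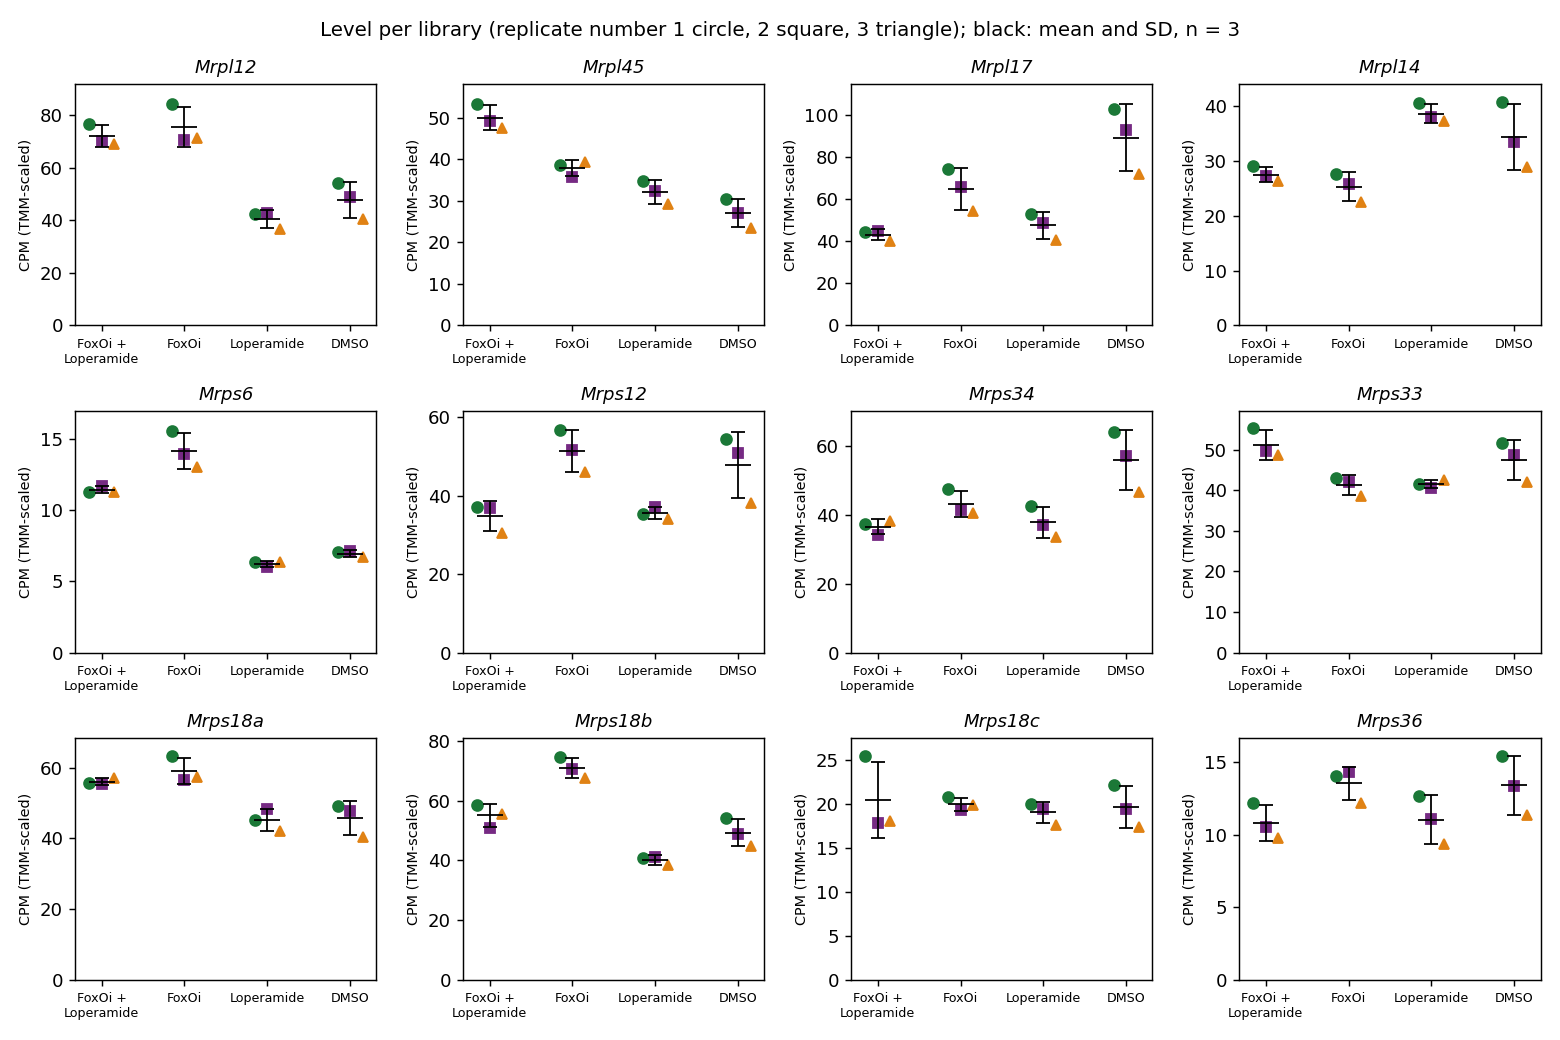
Level of 12 named members in each library, as CPM of the TMM-scaled library size, with circles, squares and triangles for replicate numbers 1, 2 and 3 and black bars for mean and SD (n = 3). Mrpl17 is lower in FoxOi_Loperamide (44.3, 44.9 and 40.1 CPM) than in DMSO (103, 93.0 and 71.9 CPM), and Mrps6 is higher in both groups with FoxOi than in those without.

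The 3 remaining comparisons set the treatments against each other. FoxOi against loperamide had the most calls, with 35 members higher (20 large, 15 small) and 1 lower, while 49.6% of all genes were called (25.5% higher, 24.1% lower). The median was 0.26, with 71 of 77 above 0, against 0.02 for all genes. Mrps6 differed most (2.27-fold, log2 1.18 ± 0.11, adjusted p = 9.1e-07), then Mrpl12 (1.86-fold, 0.89 ± 0.11, adjusted p = 1.43e-05) and Mrps18b (0.82 ± 0.09, adjusted p = 3.59e-06). Mrps18b had 74.6, 70.6 and 67.7 CPM in FoxOi, against 40.6, 41.3 and 38.3 CPM in loperamide, and its DMSO libraries lay between at 54.1, 48.9 and 44.8 CPM. Mrps10, Mrpl15 and Mrps26 were higher by 0.63 ± 0.12, 0.61 ± 0.08 and 0.61 ± 0.11 (adjusted p = 0.000747, 2.74e-05 and 0.000245). Mrpl19 and Mrpl35 were higher by 0.59 ± 0.12 and 0.57 ± 0.10 (adjusted p = 0.00116 and 0.000207). Mrpl14 was the member that was lower (−0.61 ± 0.12, adjusted p = 0.000696). Of the genes that overlap these members, Slc5a3 (Mrps6) differed by 0.29, Gcfc2, opposite 36% of the exon bases of Mrpl19, by 0.09, and Tmem63b (Mrpl14) by −0.73. Of the 35, 22 held with each library left out, and 22 members were called without FoxOi library 1. With the replicate number as a block, 52 members were higher and 1 lower, against 32.5% and 30.2% of all genes, and Mrps36 was among those higher (0.30 ± 0.11, adjusted p = 0.0142, against 0.107 without the block).

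Adding FoxOi to loperamide (FoxOi_Loperamide against loperamide) raised 22 members (11 large, 11 small) and lowered 1, while 38.9% of all genes were called (18.4% higher, 20.5% lower). The median was 0.22, against −0.01 for all genes. Mrps6 rose 1.83-fold (log2 0.87 ± 0.12, adjusted p = 3.69e-05), Mrpl12 rose 1.77-fold (0.82 ± 0.11, adjusted p = 5.53e-05) and Mrpl45 rose 1.56-fold (0.64 ± 0.11, adjusted p = 0.000233). Mrpl19, Mrps24 and Mrpl9 rose by 0.62 ± 0.12, 0.52 ± 0.11 and 0.51 ± 0.09 (adjusted p = 0.00113, 0.00133 and 0.000345), and Mrps25 by 0.48 ± 0.11 (adjusted p = 0.00299). Mrpl14 was again the 1 member that fell (−0.49 ± 0.12, adjusted p = 0.00492). Slc5a3 changed by 0.59, Gcfc2 by 0.28, Tmem63b by −0.58, Nr2c2 by −0.34 and Urgcp, which shares 15.4% of the exon bases of Mrps24 on the same strand, by −0.19. Of the 22 rises, 12 held with each library left out. In the fit with the number as a block, 42 members were higher, against 25.8% of all genes, and 3 were lower, against 27.8%. This comparison held the pair of same-numbered libraries with the lowest correlation (0.091).

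Adding loperamide to FoxOi (FoxOi_Loperamide against FoxOi) lowered 8 members (4 large, 4 small) and raised 3 (1 large, 2 small), while 26.6% of all genes were called (11.5% higher, 15.1% lower). The members' shares were 10.4% lower and 3.9% higher, each below that of all genes. The median was −0.08, against 0.00 for all genes. Mrpl17 fell by 0.59 ± 0.14 (adjusted p = 0.00653), Mrps12 by 0.56 ± 0.13 (adjusted p = 0.00442) and Mrps18b by 0.37 ± 0.09 (adjusted p = 0.00689), while Mrpl45 rose by 0.40 ± 0.10 (adjusted p = 0.00951). These 4 held with each library left out. Mrps12 had 37.1, 36.8 and 30.5 CPM in FoxOi_Loperamide, against 56.6, 51.7 and 45.9 CPM in FoxOi, with no overlap. The other 7 calls were each lost in 2 to 5 of the 6 cases. They were the falls of Mrpl54 (−0.42 ± 0.14), Mrpl57 (−0.40 ± 0.13), Mrps6 (−0.31 ± 0.11), Mrps17 (−0.28 ± 0.08) and Mrpl43 (−0.25 ± 0.09), and the rises of Mrps25 (0.33 ± 0.11) and Mrps33 (0.31 ± 0.09), with adjusted p of 0.0126 to 0.0428 in full and of 0.0535 to 0.245 where lost. The falls numbered 3 without FoxOi library 1, and 4 without FoxOi library 2, FoxOi_Loperamide library 2 or FoxOi_Loperamide library 3. The rises numbered 1 without FoxOi library 2 or 3 or FoxOi_Loperamide library 1. With the replicate number as a block, 25 members were lower, against 23.0% of all genes, and 5 were higher, against 21.6%. Mrps36 was among those lower in that fit (−0.33 ± 0.10, adjusted p = 0.00944, against 0.118 without the block).

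Each compound was given alone and on top of the other, in comparisons that share no library. For FoxOi, 62 of 77 members (80.5%) had the same sign in FoxOi against DMSO and in FoxOi_Loperamide against loperamide, with a Pearson correlation of 0.75 and a Spearman correlation of 0.69 across members, given as a description since genes are not independent replicates. Of all genes tested, 75.3% had the same sign, with a Pearson correlation of 0.65. There were 13 members higher in both, which is 72.2% of those raised by FoxOi alone and 59.1% of those raised on top of loperamide, against 51.5% and 57.8% for all genes. Mrpl14 was lower in both. For loperamide, 57 members (74%) had the same sign and the Pearson correlation was 0.63, against 69.1% and 0.52 for all genes. Mrpl17, Mrps12 and Mrps18b were lower in both comparisons, which is 18.8% of those lowered by loperamide alone and 37.5% of those lowered on top of FoxOi, against 47% and 49.2% for all genes. No member was called in opposite directions, while 225 of 16808 genes were for FoxOi and 195 for loperamide. The same replicate numbers ran through all 4 groups.

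**Figure D4:**
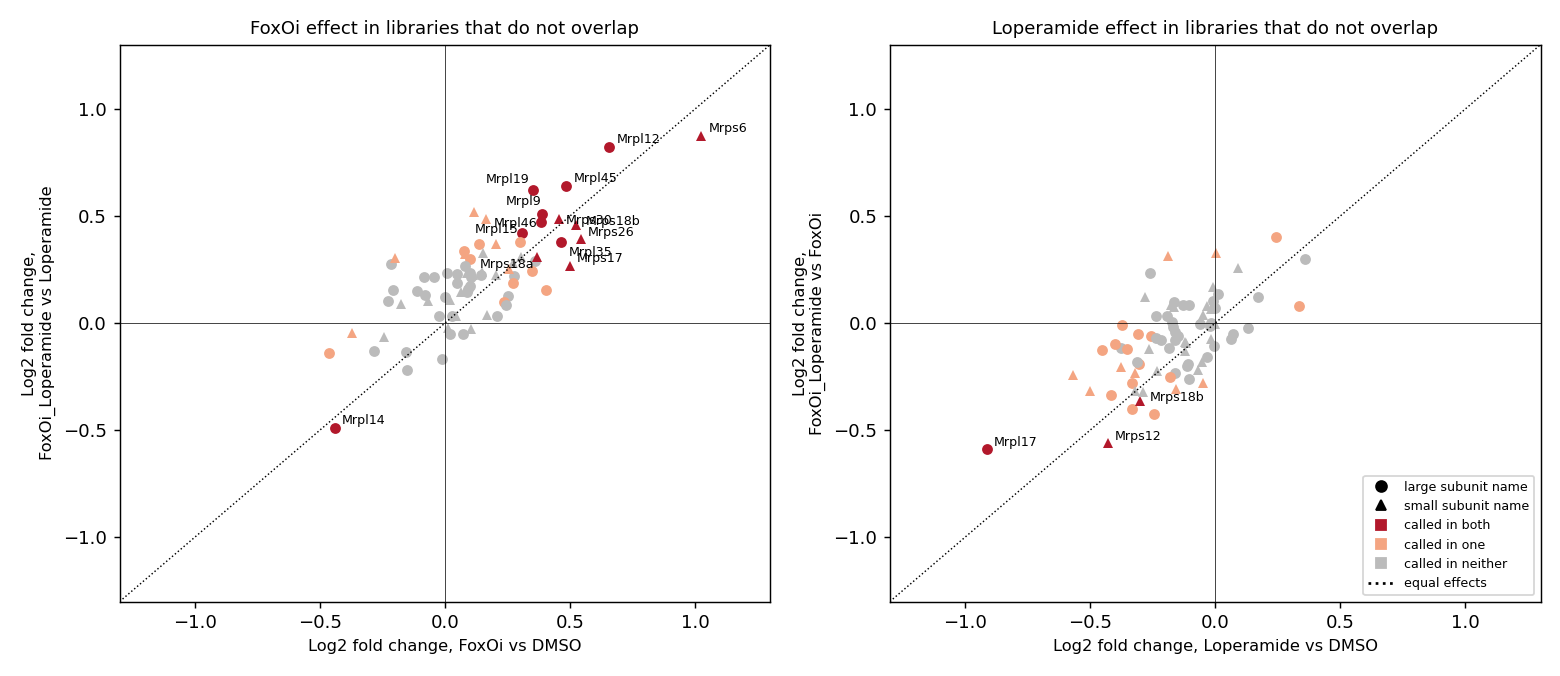
Log2 fold change of each member for FoxOi (left) and loperamide (right), given alone (x axis) and on top of the other compound (y axis), with circles for large and triangles for small subunit names, colour for the number of comparisons in which the member was called, and a dotted line where effects are equal. For FoxOi 13 members lie high in both, led by Mrps6 and Mrpl12, and for loperamide 3 lie low in both, led by Mrpl17.

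The test of interaction asked whether loperamide acts differently with FoxOi present. It called 1 member higher and none lower, while 9.48% of all genes were called (3.66% higher, 5.82% lower). An unadjusted p under 0.05 was found for 4 of the 77 members. The share of all genes under that threshold was not computed, so this count is not read as a result. The member called was Mrps33, a small subunit protein without a bacterial counterpart. It had 55.4, 49.6 and 48.7 CPM in FoxOi_Loperamide, 43.2, 42.2 and 38.6 CPM in FoxOi, 41.6, 40.6 and 42.6 CPM in loperamide, and 51.6, 48.6 and 42.0 CPM in DMSO. The FoxOi and loperamide libraries lay at or below 43.2 CPM, a range that held the lowest DMSO library, and the combination overlapped DMSO. The interaction was 0.50 ± 0.13 on the log2 scale (adjusted p = 0.0272). The call was lost without FoxOi library 2 (adjusted p = 0.0502), FoxOi library 3 (0.0698), loperamide library 1 (0.0561), loperamide library 2 (0.0626), FoxOi_Loperamide library 1 (0.0721) or DMSO library 2 (0.0615). The count was 2 without FoxOi library 1, FoxOi_Loperamide library 3 or DMSO library 3. Mrps12, Mrpl12 and Mrps18b had interactions of −0.13 ± 0.18, 0.17 ± 0.16 and −0.07 ± 0.13 (adjusted p = 0.742, 0.601 and 0.825). When the number was added as a block, 9 members were higher, against 11.4% of all genes, and 0 lower, against 14.4%, so the share of members higher was near the background in that fit. Mrps33 was among the 9 (0.49 ± 0.10, adjusted p = 0.000544), with Mrpl49 (0.49 ± 0.09, adjusted p = 0.000127), Mrpl17, Mrpl18, Mrpl41, Mrpl51, Mrps24, Mrps25 and Mrps34.

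The members were also counted by their place in the particle, and the shares called in FoxOi against DMSO stand here beside 20.7% higher and 20.3% lower among all genes. Of the 30 large subunit proteins with a bacterial counterpart 6 were higher (20%) and 2 lower. Of the 20 tested mitochondrion-specific proteins of that subunit, Mrps30 and Mrps18a included, 7 were higher (35%) and 0 lower. Of the 16 small subunit proteins with a bacterial counterpart 2 were higher (12.5%) and 0 lower, and of the 10 mitochondrion-specific ones 3 were higher (30%) and 1 lower. In loperamide against DMSO the same 4 classes had 6, 4, 3 and 3 members lower (20%, 20%, 18.8% and 30%), against 15.8% of all genes. Differences between the classes were not tested. Among 5 mitoribosomal proteins under other names, FoxOi lowered Gadd45gip1, a large subunit protein (−0.49 ± 0.13, adjusted p = 0.00779), and loperamide lowered Ptcd3, a small subunit protein (−0.35 ± 0.08, adjusted p = 0.00294).

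Genes that make and serve the particle also changed in part. Against DMSO, the shares of all genes called were 22.3% higher and 23.2% lower in FoxOi_Loperamide, 20.7% and 20.3% in FoxOi, and 16.1% and 15.8% in loperamide. Of 25 assembly and ribosomal RNA modification genes, 6 were higher and 4 lower in FoxOi_Loperamide, 8 higher and 3 lower in FoxOi, and 1 higher and 1 lower in loperamide, each against DMSO. Fastkd2, an RNA-binding protein of large subunit assembly, rose by 0.73 ± 0.10 with FoxOi (adjusted p = 4.14e-05), whereas Tfb1m, which methylates the small subunit RNA, fell by 0.62 ± 0.14 (adjusted p = 0.00247). Of 15 translation factors, 4 were higher and 1 lower in FoxOi_Loperamide, 3 higher and 0 lower in FoxOi, and 2 higher and 3 lower in loperamide. Tufm, the elongation factor that brings aminoacyl-tRNA, fell by 0.55 ± 0.09 with loperamide (adjusted p = 0.000389). Of 9 transcription regulators of mitochondrial biogenesis, 4 were higher and 0 lower in FoxOi_Loperamide. With FoxOi 6 were higher and 0 lower, among them Esrra, a nuclear receptor (0.95 ± 0.10, adjusted p = 3.34e-06), and the coactivators Ppargc1b (1.94 ± 0.27, adjusted p = 4.17e-05) and Ppargc1a (2.76 ± 0.55, adjusted p = 0.000979). Ppargc1a was near the floor, with 15, 15 and 30 counts in FoxOi, against 1, 5 and 1 in DMSO, so the size of its change is poorly determined. With loperamide 4 of the 9 were higher and 1, Pprc1, was lower (−0.49 ± 0.08, adjusted p = 0.000417).

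The cytosolic ribosome and the respiratory chain had other counts. Of 81 tested cytosolic ribosomal protein genes, 66 were higher and 0 lower in FoxOi_Loperamide, 34 higher and 0 lower in FoxOi, and 1 higher and 8 lower in loperamide, against DMSO, with median log2 fold changes of 0.53, 0.29 and −0.03. Of 79 tested nuclear genes for oxidative phosphorylation subunits, 3 were higher and 13 lower in FoxOi_Loperamide, 7 higher and 8 lower in FoxOi, and 1 higher and 41 lower in loperamide, with medians of −0.09, −0.07 and −0.31. In loperamide the 8 and 41 lower are 9.88% and 51.9% of their lists, against 15.8% of all genes. The members' medians for these comparisons were 0.04, 0.10 and −0.16. Of the 13 messages translated by the mitochondrial ribosome, 9 passed the filter, with 5 higher and 0 lower in FoxOi_Loperamide, 0 in either direction in FoxOi, and 4 higher and 0 lower in loperamide. These included mt-Nd2, a complex I subunit, which was higher by 1.25 ± 0.15 in FoxOi_Loperamide (adjusted p = 8.97e-06) and by 1.31 ± 0.15 in loperamide (adjusted p = 1.41e-05). It had 4234, 3205 and 3801 CPM in FoxOi_Loperamide and 4709, 3474 and 3575 CPM in loperamide, against 1875, 1503 and 1355 CPM in DMSO. The messages that failed the filter, mt-Co2, mt-Co3, mt-Atp6 and mt-Atp8, had at most 3 counts in any library. Why was not tested, so these counts cannot be read as absence of their RNA. These differences between gene groups were not tested.

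Genes that start next to a member were set beside it in 30 pairs where both genes were tested. The member was called in 7 pairs and its neighbour in 14 with FoxOi_Loperamide, 7 and 14 with FoxOi, and 8 and 11 with loperamide, while 45.5%, 40.9% and 31.9% of all genes were called. Both were called in the same direction in 2 pairs with FoxOi_Loperamide, 2 with FoxOi and 1 with loperamide, against DMSO. With FoxOi these were Mrpl14 with Tmem63b, a putative channel gene (−0.57 ± 0.11, adjusted p = 0.000657), and Mrps34 with Eme2, a DNA repair nuclease subunit (−0.46 ± 0.11, adjusted p = 0.00443). Mrpl37, chosen after its values were seen, rose by 0.27 ± 0.08 (adjusted p = 0.0155) where its neighbour Cyb5rl fell by 0.48 ± 0.18 (adjusted p = 0.0465). Without FoxOi library 1, DMSO library 2 or DMSO library 3, Mrpl37 was not called (adjusted p = 0.0888 to 0.109).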

How the data were processed

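RNA from 12 Min6 libraries was sequenced from stranded mRNA kits, per the labels' protocols. The authors deposited raw counts per gene and FPKM values. Among tools, STAR 2.7.5a, Picard 2.19.2 and DESeq2 are listed in the submitters' processing notes, with GRCm38 and mm10 as builds. For the counting step, the tool and the strand setting are not given in these sources. The deposited FPKM values equal counts divided by length and a library factor that lay within 0.226% of the DESeq2 size factor in a check over 11651 genes, and were used for levels only. Members and gene lists were chosen with earlier results of these data known.

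Counts were tested with edgeR 4.0.16 (R 4.3.3) by quasi-likelihood: filterByExpr by group (minimum count 10, minimum total 15), TMM scaling, all 12 libraries, group as the only term, robust dispersion. Benjamini-Hochberg adjustment ran over 16808 genes, with calls under 0.05. SE is the absolute log2 fold change over the square root of F. Named were, in each comparison, up to 4 called members with the largest rise and the largest fall in each subunit, plus Mrpl10, Mrpl11, Mrpl12, Mrps12, Mrps18a, Mrps18b, Mrps18c, Mrps30 and Mrps36; the rest appear as counts. Mrpl13, Mrpl19, Mrpl28 and the neighbouring genes were chosen after their values were seen. A search for genes correlated with the members was not used here. Chi-square per degree of freedom between libraries of 1 group ran from 5.34 to 33.6. These values are taken over the genes together, and counting error was not set beside the spread for single members. Depth limits low genes most.

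Same-numbered libraries deviated from their group means together (18 pairs, correlations 0.091 to 0.507, median 0.343). Libraries with different numbers ran from −0.469 to 0.105. Each same-numbered pair was over 0.1 except library 2 of loperamide with library 2 of FoxOi_Loperamide, at 0.091. The other pairs numbered 2 were at 0.115 to 0.142. With 0.1 as the cut-off, the numbers were taken as pairing the samples in every pairwise comparison but FoxOi_Loperamide against loperamide, which fell just short. The pairs numbered 1 and 3 of that comparison were at 0.328 and 0.341. The main fit and the fits with a library left out did not use the pairing. Leaving out a library also left the numbers unbalanced between groups, and its part in the calls lost was not tested. Alternatives were DESeq2 1.42.0, its size factors, total counts, no filter, the groups compared alone, the replicate block and each library left out. Gene positions are those of GENCODE M21, which all 78 members' rows match. The test was checked on simulated counts for FoxOi against DMSO, with changes put into well-counted genes only. It recovered 51 of 67 changes of 1.5-fold, 63 of 67 of 2-fold and 66 of 66 of 4-fold, with 9 false calls. The simulation held no effect of the replicate number, so it cannot show how the test behaves with one.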

Additional observations from a re-analysis of the deposited data

Results flagged for a closer look

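The interaction of both compounds on Mrps33 was 0.501 on the log2 scale, from an edgeR quasi-likelihood test of the difference itself. Loperamide changed Mrps33 by 0.31 ± 0.09 in cells that also had FoxOi and by −0.19 ± 0.10 in cells without it. It was the 1 member called among 77, while 9.48% of all genes were called, and the call was lost in 6 of the 12 fits that left out a library. With the replicate number as a block, 9 members were higher, Mrps33 among them, against 11.4% of all genes.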

How the results depend on the processing

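The direction of the members' median was kept under each scaling in the 6 pairwise comparisons. Counts of members called (higher, lower) that moved by over 1.5 times were as follows. Beyond the main fit, the share of all genes called was computed for the replicate block only. The counts under the other settings therefore have no background beside them. With total counts, FoxOi against DMSO had 1 lower, loperamide against DMSO 2 higher and 4 lower, FoxOi_Loperamide against DMSO 32 higher and 4 lower, and FoxOi_Loperamide against FoxOi 4 lower. With no filter, loperamide against DMSO had 0 higher, FoxOi_Loperamide against FoxOi 5 lower, and the interaction 2 higher. With the groups compared alone, loperamide against DMSO had 0 higher and FoxOi_Loperamide against DMSO 5 lower. DESeq2 gave 2 higher for the interaction.

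With the replicate block, FoxOi against DMSO had 28 higher and 9 lower, loperamide against DMSO 3 and 31, FoxOi_Loperamide against DMSO 25 and 14, FoxOi_Loperamide against FoxOi 5 and 25, FoxOi_Loperamide against loperamide 42 and 3 (25.8% and 27.8% of all genes), and the interaction 9 higher (11.4% of all genes). The pairing did not pass the check in FoxOi_Loperamide against loperamide.

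Leaving out 1 library at a time gave, for FoxOi against DMSO, 11 to 20 higher and 1 to 8 lower. It gave 0 to 2 higher and 4 to 25 lower for loperamide against DMSO, and 9 to 14 higher and 5 to 14 lower for FoxOi_Loperamide against DMSO. It gave 1 to 3 higher and 3 to 10 lower for FoxOi_Loperamide against FoxOi, 15 to 26 higher for FoxOi_Loperamide against loperamide, 22 to 37 higher for FoxOi against loperamide, and 0 to 2 higher for the interaction. For single named members, 1315 values under an alternative kept their side of the threshold, 116 lost the call and 11 gained one. Of the values called in either fit, 0 changed sign. A change of sign in a member called in neither fit was counted as kept, and the 1315 include such members. Over all called members, fewer calls were kept in every alternative. Against DMSO these were 10 of 18 rises and 1 of 3 falls with FoxOi. They were 0 of 1 rises and 3 of 16 falls with loperamide, and 8 of 15 rises and 4 of 9 falls with FoxOi_Loperamide. The causes were not tested. With 3 libraries a group, libraries differed by more than counting error over the genes tested as a whole. Whether spread or depth set the precision of single members was not tested.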
